A study of Mus musculus with 6 samples.

Results

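Removal of APOE4 from astrocytes of P301S tau mice was examined by comparing the nuclei of 1 tamoxifen-treated library, TAFE4_tam, with those of 1 oil-treated library, TAFE4_oil. All nuclei of both libraries entered that held at least 500 unique molecular identifiers (UMIs, each standing for 1 captured RNA molecule), at least 300 detected genes and at most 5% of UMIs from mitochondrially encoded genes, once likely doublets had been left out. These were 24544 of the 68690 nuclei kept in 6 libraries, 12106 from TAFE4_oil and 12438 from TAFE4_tam. Both groups were 9-month-old mice on the B6 strain with the genotype P301S APOE4 fl/fl Aldh1la1CreERT (so spelled in the labels). They carried the P301S tau transgene, floxed human APOE4 in both alleles and a tamoxifen-inducible Cre, and differed in the treatment, oil or tamoxifen. Tamoxifen and the APOE deletion come together in this pair, so an effect of the drug and an effect of the deletion cannot be told apart. The matching pair with floxed APOE3, TAFE3_oil and TAFE3_tam (20676 nuclei), and the untreated mice without tau, FE3 and FE4 (APOE3 fl/fl and APOE4 fl/fl), are given beside it. Neither Cre nor human MAPT is a feature of the matrices, so recombination was read from APOE alone and the transgene was not measured.

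Each group was 1 library, and the labels do not say whether animals were pooled. No test between groups was therefore possible, and no p-value is given. Every log2 ratio below is TAFE4_tam over TAFE4_oil unless the APOE3 pair is named, and the values in brackets after it are an exact 95% interval that covers counting error only, not the spread between mice. A ratio of at least 1.5-fold in either direction stands in for a call. Levels are UMIs per 1000000 UMIs (CPM) of the nuclei of 1 class in 1 library, so they compare libraries within a gene.

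Apolipoprotein E is the main lipid carrier of the brain. Astrocytes secrete most of it, lipidated through the transporter ABCA1, and microglia raise their own expression in response to degeneration. The APOE4 allele is the strongest common genetic risk for late-onset Alzheimer disease, and in P301S mice, which express a mutant human tau, human APOE4 is known to worsen neurodegeneration. Interferon-stimulated genes, among them the Ifit genes, Stat2 and Irf7, are known to be induced by type I interferon, and are part of the glial response in tauopathy.

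The 6 libraries held 14762 to 18171 barcodes and 39050503 to 49083723 UMIs, and the median nucleus used held 2140 to 2597 UMIs. The labels name hippocampus in the titles and the left hemisphere in the protocol. Between 65 and 83 barcode sequences were shared by any 2 libraries, 83 by the TAFE4 pair. TAFE4_tam stood apart from TAFE4_oil in mitochondrial RNA. The median share of mitochondrial UMIs per barcode was 0.695% in TAFE4_tam and 2.35% in TAFE4_oil, against 0.625% in FE4 and 2.01% to 3.23% in the other 3 libraries. The 5% limit removed 363 of 660 astrocytes of TAFE4_oil and 68 of 304 of TAFE4_tam, and 40.5% and 9.92% of the microglia. Of the 32 clusters, 21 were named from marker genes and 11 were left unnamed (11.1% and 11.6% of the nuclei of TAFE4_oil and TAFE4_tam). A class name such as microglia stands for microglia-like nuclei of such clusters.

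Human APOE, the floxed gene, was 3.55-fold lower in astrocytes of TAFE4_tam than in those of TAFE4_oil. Its level was 18258 CPM in TAFE4_oil and 5145 in TAFE4_tam, against 16133 in TAFE3_oil and 5062 in TAFE3_tam, with 12787 and 12887 for FE3 and FE4. The 4 libraries without tamoxifen sat between 12787 and 18258 CPM and both tamoxifen libraries at 5062 and 5145 CPM, with no overlap. The log2 ratio was -1.83 (-1.89 to -1.76), from 13718 and 2400 UMIs, and in the APOE3 pair it was -1.67. Reads listed under mouse Apoe followed the same order in astrocytes, at 1720 CPM in TAFE4_oil and 549 in TAFE4_tam, against 1429 in TAFE3_oil and 411 in TAFE3_tam, with 1485 and 1320 for FE3 and FE4. The mouse and human genes are close copies, and reads of 1 that were counted under the other cannot be told apart here. Aldh1l1, the astrocyte gene whose promoter the Cre name points to, was at 77.2 CPM in TAFE4_oil and 114 in TAFE4_tam, from 58 and 53 UMIs.

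APOE was also lower in every other class with at least 50 nuclei in both libraries, by unequal amounts. In microglia, which held the highest APOE level of the tau libraries, it stood at 32710 CPM in TAFE4_oil and 21964 in TAFE4_tam, against 21218 in TAFE3_oil and 21715 in TAFE3_tam, with 2974 and 2152 for FE3 and FE4. The log2 ratio was -0.57 (-0.60 to -0.55), and TAFE4_tam was level with both APOE3 libraries, whose own ratio was 0.033. TAFE4_oil was thus the library that stood above the other tau libraries in microglial APOE. In oligodendrocyte precursors, which give rise to oligodendrocytes, the ratio was -0.42 (-0.50 to -0.35), and in oligodendrocytes -0.81 (-0.86 to -0.76). In neurons, where little APOE is made, the ratio was -1.20 in dentate granule neurons, -1.19 in CA1 neurons, -1.35 in CA2 or CA3 neurons, -1.38 in subicular or cortical excitatory neurons and -1.48 in inhibitory neurons. The level in all excitatory neurons pooled was 1687 CPM in TAFE4_oil and 658 in TAFE4_tam, against 1104 in TAFE3_oil and 623 in TAFE3_tam, with 828 and 471 for FE3 and FE4. Endothelial cells, at 4110 CPM in TAFE4_oil and 1558 in TAFE4_tam, had a ratio of -1.40, and pericytes or smooth muscle cells, at 4584 CPM in TAFE4_oil and 1916 in TAFE4_tam, one of -1.26. Free RNA from broken cells reaches all droplets, and its part in the lower neuronal and vascular values was not tested.

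The lower APOE of astrocytes was then read nucleus by nucleus, after each nucleus had been thinned to 1000 UMIs. Of 222 TAFE4_tam astrocytes 62 held no APOE UMI, 27.9% (exact interval 22.1% to 34.3%), against 3 of 296 in TAFE4_oil, 1.01% (0.21% to 2.93%). The share was 22.1% in TAFE3_tam, 0.326% in TAFE3_oil, 0.670% in FE3 and 1.76% in FE4. Both tamoxifen libraries therefore stood apart from the 4 others. The distribution as a whole was lower too, since the median astrocyte held 15 APOE UMIs in TAFE4_oil and 1.5 in TAFE4_tam, and 86.5% and 22.5% held at least 5. In excitatory neurons, given as a background level, 19.1% of nuclei held no APOE UMI in TAFE4_oil and 49.5% in TAFE4_tam, so the share of astrocytes with APOE in TAFE4_tam was above that of neurons in the same library. The median depth before thinning was 1974 and 1647 UMIs in the astrocytes of TAFE4_oil and TAFE4_tam, and 3010 and 2830 in the neurons. The share without APOE depends on depth. Without thinning it was 0 of 297 nuclei in TAFE4_oil, which allows up to 1.23%, and 9.75% (23 of 236) in TAFE4_tam, and among the 75 TAFE4_tam nuclei deep enough for 2000 UMIs it was 1.33%. As nuclei from which the gene was deleted and nuclei in which it was not cannot be marked in these data, less RNA per nucleus and a mixture of both cannot be told apart.

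**Figure D1:**
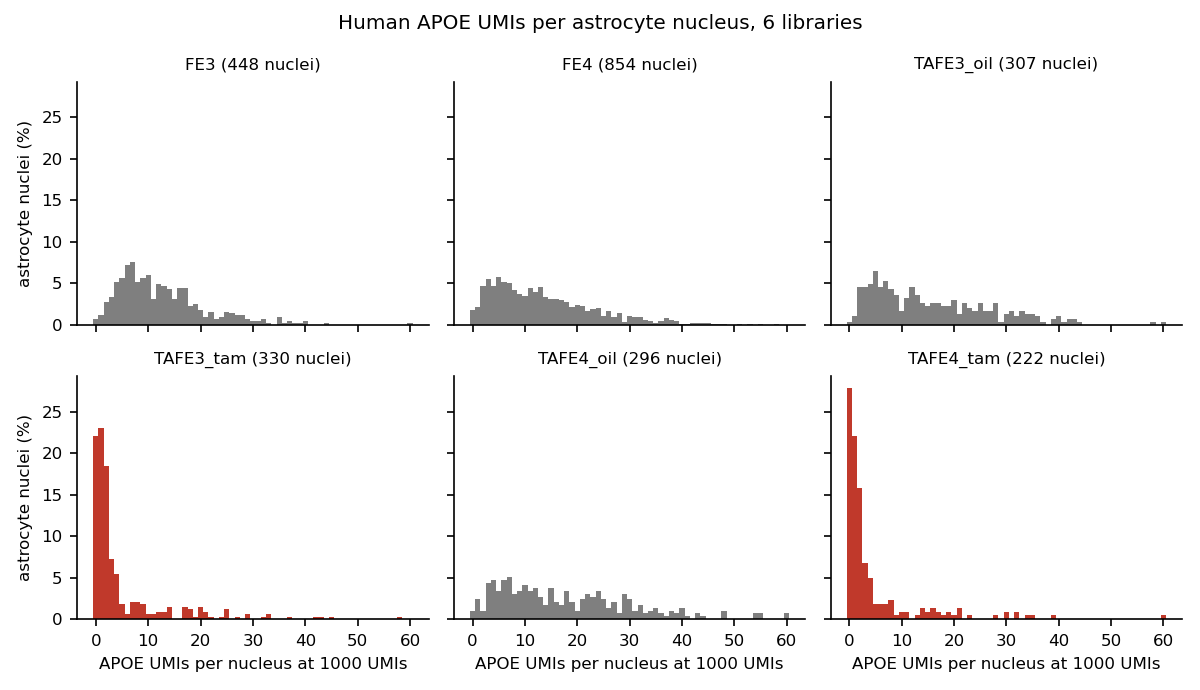
Histograms of APOE UMIs per astrocyte nucleus after thinning to 1000 UMIs, 1 panel per library, with the share of nuclei on the vertical axis and tamoxifen libraries in red. The last bar holds nuclei with 60 or more UMIs. Both red panels, with 330 (TAFE3_tam) and 222 (TAFE4_tam) nuclei, are massed at 0 to 4 UMIs, and the 4 grey panels are spread widely with 0.326% to 1.76% of nuclei at 0.

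Interferon-stimulated genes had a median ratio above 0 in all 10 classes compared, and most of the measured genes were higher in microglia, astrocytes and endothelial cells of TAFE4_tam. Of the 56 genes of the list, 45 had at least 50 UMIs in microglia and 40 of these were at least 1.5-fold higher in TAFE4_tam with none lower, whereas 8.86% of the 7881 genes measured in microglia were that much higher and 9.66% that much lower. The median log2 ratio of the list was 1.12 in microglia against 0.033 for all genes. The limit of 50 UMIs was applied to both libraries together. Members such as Samd9l (8 UMIs in TAFE4_oil and 80 in TAFE4_tam) and Pydc4 (19 and 134) thus passed it through TAFE4_tam. Counts of higher members are therefore partly set by this limit, here and in the other classes. In astrocytes 10 of 12 measured members were higher (median 1.25), against 4.91% of 4438 genes higher, 11.3% lower and a median of -0.066 for all genes. In endothelial cells it was 16 of 22 (0.93), where 5.77% of 2635 genes were higher and 5.84% lower. The list had a median of 0.67 in oligodendrocyte precursors with 4 of 7 higher (background 5.20% higher, 10.8% lower, and a median of 1.80 over nuclei with at least 1000 UMIs), and of 0.52 in oligodendrocytes with 7 of 14 higher and 1 lower (background 4.39% higher, 10.2% lower).

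The median of the list was above 0 in each neuronal class too. In CA1 neurons 6 of 9 measured members were higher with a median of 0.84 (of 7944 genes, 5.02% were higher and 6.99% lower), in dentate granule neurons 6 of 13 with 0.58 (3.71% and 4.71% of 9560), and in CA2 or CA3 neurons 6 of 11 with 0.62 (4.42% and 5.59% of 9145). Subicular or cortical excitatory neurons had 17 of 34 higher with a median of 0.57 (2.40% and 4.56% of 13336), and inhibitory neurons 4 of 17 higher and 1 lower with 0.30 (1.31% and 5.92% of 11359). In the APOE3 pair the median of the list was 0.16 in microglia, where 3 of 20 measured members were higher against a background of 4.79% higher and 4.64% lower. It was 0.0042 in astrocytes (1 of 9 higher, background 6.59% higher and 3.54% lower), 0.13 in oligodendrocytes (0 of 5 higher, background 2.82% and 4.78%), 0.11 in granule neurons, -0.27 in CA1 neurons and -0.15 in endothelial cells. The limit of 50 UMIs was applied to each pair on its own. Counts and medians of the 2 pairs can thus rest on different genes, here and in the other lists. In microglia some members under the limit in the APOE3 pair were past 1.5-fold there. Those higher were Rtp4, Oasl2, Slfn5, Dhx58, Ddx58, Irf7, Mx1 and Ifih1, and only Cd274 was lower. The APOE3 count and median in microglia leave these members out, so they hold fewer higher members than the full list would. The difference between the 2 pairs was not tested. Mitochondrial UMIs were lower in TAFE4_tam, so the medians were also taken over nuclei with at most 1% of them. They were then 1.10 in granule neurons, 1.09 in CA1 neurons, 0.59 in CA2 or CA3 neurons and 0.24 in oligodendrocytes, while fewer than 50 astrocytes and microglia of TAFE4_oil were left. More genes of any kind passed 1.5-fold at that limit too. Genes higher then numbered 1111 in granule, 861 in CA1 and 813 in CA2 or CA3 neurons, against 355, 399 and 404 at the 5% limit. An unnamed cluster of excitatory neurons led by interferon genes was kept out of these classes. It held 34 nuclei of TAFE4_oil (0.281%) and 279 of TAFE4_tam (2.24%), with 49 and 79 in the APOE3 pair, none in FE3 and 1 in FE4. Interferon genes helped to form the cluster, so its share is a description of the same difference. Counted with CA1 neurons, it gave 22 of 25 measured members higher, with a median of 1.12, where 5.72% of the 8923 genes of the joined class were higher. This alternative was chosen after seeing the data, and the count restates how the cluster was formed.

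**Figure D2:**
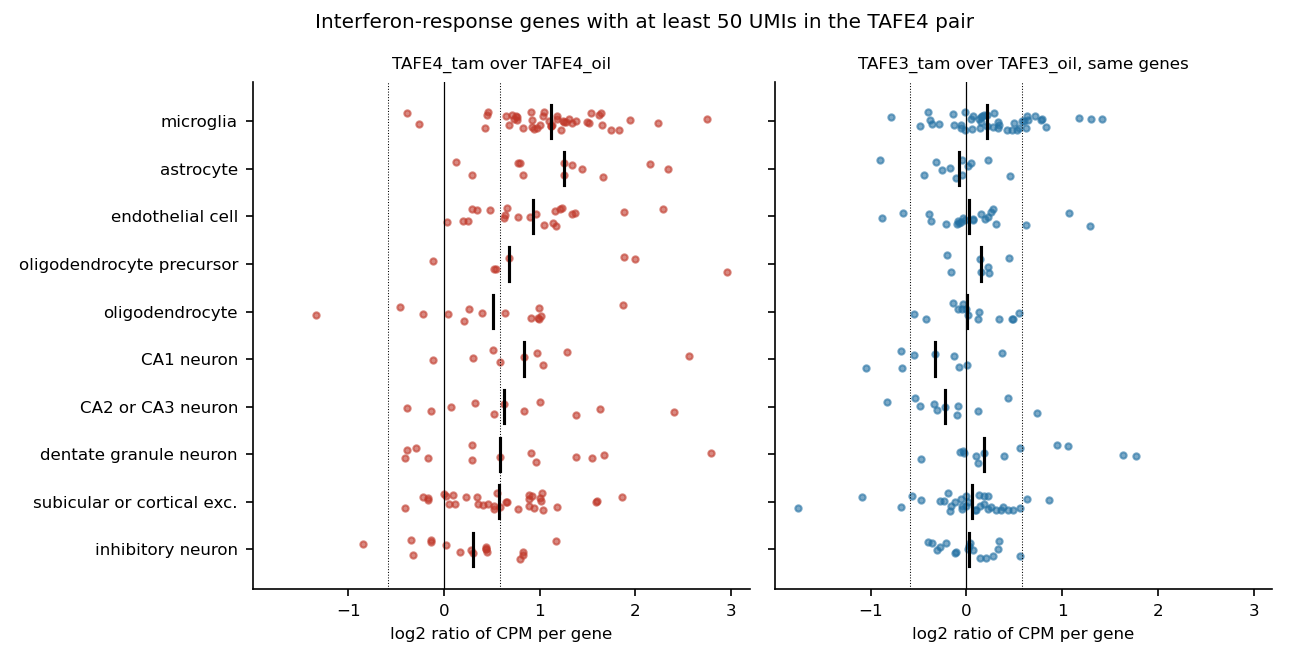
Log2 ratio of each measured gene of the interferon list in 10 classes, TAFE4_tam over TAFE4_oil on the left and the same genes in TAFE3_tam over TAFE3_oil on the right. Points are genes, black bars medians and dotted lines 1.5-fold in either direction. The medians of the left panel lie between 0.30 and 1.25.

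The promoters of 4 of the genes described next are printed here, each holding a match to a motif to which IRF proteins bind. Each line holds the 250 bases before the RefSeq start on build GRCm38.p6, 5' to 3' along the gene, with capitals marking a match on either strand to GAAA, any 2 bases and GAAA.
Ifit1 promoter, chr19:34640639-34640888, plus strand: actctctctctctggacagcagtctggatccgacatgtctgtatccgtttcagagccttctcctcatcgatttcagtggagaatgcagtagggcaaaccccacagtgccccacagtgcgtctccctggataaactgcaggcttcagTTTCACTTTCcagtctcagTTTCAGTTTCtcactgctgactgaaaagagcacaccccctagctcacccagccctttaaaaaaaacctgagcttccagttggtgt
Ifit3 promoter, chr19:34583279-34583528, plus strand: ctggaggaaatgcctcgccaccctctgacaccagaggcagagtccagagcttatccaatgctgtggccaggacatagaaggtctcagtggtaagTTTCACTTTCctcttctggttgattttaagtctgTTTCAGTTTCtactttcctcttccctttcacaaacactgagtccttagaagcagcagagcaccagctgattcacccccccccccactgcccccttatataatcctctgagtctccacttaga
Stat2 promoter, chr10:128270248-128270497, plus strand: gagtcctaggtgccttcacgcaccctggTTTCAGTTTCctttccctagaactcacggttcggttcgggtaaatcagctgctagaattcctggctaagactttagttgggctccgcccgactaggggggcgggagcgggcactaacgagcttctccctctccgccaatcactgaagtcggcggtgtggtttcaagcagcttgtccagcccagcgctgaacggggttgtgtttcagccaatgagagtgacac
Cxcl10 promoter, chr5:92348890-92349139, minus strand: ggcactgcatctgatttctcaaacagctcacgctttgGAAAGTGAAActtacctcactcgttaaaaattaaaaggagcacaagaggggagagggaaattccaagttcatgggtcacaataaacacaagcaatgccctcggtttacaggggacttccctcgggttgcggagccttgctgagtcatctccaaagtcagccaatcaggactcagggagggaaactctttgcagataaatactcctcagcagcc
The motif search covered 300 bases, 250 before to 50 after the start. It found a match in 3.99% of the 27025 genes with a promoter in the table, in 24 of the 44 interferon list genes that had one (54.5%) and in 13 of the 27 that were higher in microglia (48.1%). Ifit1 held 2 matches, starting 104 and 85 bases before the start, and Ifit3 held 2, at 156 and 122 bases. Stat2 held 1 match at 222 bases and Cxcl10 1 at 213. No match to these letters was found in this window for Ccl12, Irf9 or Samd9l.

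Ifit1, whose protein binds viral RNA lacking host cap marks, was higher in all 10 classes, with log2 ratios from 1.17 to 2.79. In astrocytes its level was 19.96 CPM in TAFE4_oil and 101 in TAFE4_tam, against 24.8 in TAFE3_oil and 18.2 in TAFE3_tam, with 0 and 1.94 for FE3 and FE4. The TAFE4_tam value was above all others there, and the log2 ratio was 2.34 (1.47 to 3.28) against -0.45 in the APOE3 pair. In dentate granule neurons it was 10.3 CPM in TAFE4_oil and 71.1 in TAFE4_tam, against 6.97 in TAFE3_oil and 23.8 in TAFE3_tam, with 1.01 and 0.384 for FE3 and FE4, a ratio of 2.79 (2.10 to 3.56), with a ratio above 0 in the APOE3 pair too (1.77). In CA1 neurons it was 9.12 CPM in TAFE4_oil and 53.7 in TAFE4_tam, against 41.5 in TAFE3_oil and 20.05 in TAFE3_tam, with 2.77 and 1.46 for FE3 and FE4. There TAFE3_oil, at 41.5 CPM, came close to TAFE4_tam, so the high value was not particular to the tamoxifen library. Over all nuclei, where the mix of classes also counts, Ifit1 stood at 13.5 CPM in TAFE4_oil and 69.6 in TAFE4_tam, against 21.03 in TAFE3_oil and 27.5 in TAFE3_tam, with 3.42 and 2.57 for FE3 and FE4. The 4 tau libraries were all above FE3 and FE4, and TAFE4_oil was the lowest of the 4.

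The signalling genes behind the response were higher as well. Stat2, which carries the interferon signal to the nucleus, was at least 1.5-fold higher in 6 of 7 classes. In microglia Stat2 stood at 28.7 CPM in TAFE4_oil and 111 in TAFE4_tam, against 54.98 in TAFE3_oil and 45.2 in TAFE3_tam, with 33.5 and 23.7 for FE3 and FE4, with a ratio of 1.94 (1.36 to 2.58) and of -0.28 in the APOE3 pair. TAFE4_tam was the highest library for this gene and TAFE4_oil the lowest of the 4 tau libraries. Irf7, the transcription factor that amplifies interferon production, was higher in all 3 classes that measured it. In endothelial cells its level was 69.6 CPM in TAFE4_oil and 256 in TAFE4_tam, against 56.4 in TAFE3_oil and 69.7 in TAFE3_tam, with 31.05 and 43.5 for FE3 and FE4, so that TAFE4_tam again stood alone, with a ratio of 1.88 (1.22 to 2.58). Irf9 was higher in 6 of 9 classes, Bst2, which tethers enveloped viruses to the cell, in 9 of 9, Ifit3 in 6 of 6, Isg15, a ubiquitin-like modifier, in 4 of 5 and the helicase Ddx60 in 4 of 4. The members Adar, Ifitm2, Ifitm3 and Ifi27 were mostly within 1.5-fold. The RNA editor Adar passed 1.5-fold in 0 of 8 classes, Ifitm2 was lower in 2 of 6 and higher in none, Ifitm3 was higher in 2 of 10 and Ifi27 in 1 of 10.

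Cxcl10, a chemokine that attracts T cells through CXCR3, showed the largest ratio among the genes named in astrocytes. It stood at 34.6 CPM in TAFE4_oil and 412 in TAFE4_tam, against 32.6 in TAFE3_oil and 30.8 in TAFE3_tam, with 0 and 12.1 for FE3 and FE4, a log2 ratio of 3.57 (2.98 to 4.22) from 26 and 192 UMIs, against -0.084 in the APOE3 pair. All libraries but TAFE4_tam were at most 34.6 CPM. In microglia, by contrast, the gene was high in both tamoxifen libraries, at 21.5 CPM in TAFE4_oil and 117 in TAFE4_tam, against 17.02 in TAFE3_oil and 155 in TAFE3_tam, with 0 and 0 for FE3 and FE4. The log2 ratios were 2.45 (1.79 to 3.18) for APOE4 and 3.19 for APOE3. Other genes named in astrocytes were Lgals3bp, a secreted galectin-3 ligand, with 30.6 and 96.5 CPM (1.66), and Ifit3 with 46.6 and 126 CPM (1.44), in TAFE4_oil and TAFE4_tam respectively.

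Counted per nucleus, with 1000 UMIs from each, the share of microglia holding at least 3 UMIs of the list was 31.5% (26.5% to 36.8%) of 327 nuclei in TAFE4_oil and 66.6% (62.2% to 70.8%) of 482 in TAFE4_tam, and 28.4% and 57.6% without thinning. It was 42.1% (34.4% to 50.2%) in TAFE3_oil and 41.1% (31.9% to 50.8%) in TAFE3_tam. In FE3 and FE4 it was 10.0% (1.23% to 31.7%) of 20 nuclei and 8.33% (1.75% to 22.5%) of 36. The interval of TAFE4_tam thus lay above those of the APOE3 libraries, while that of TAFE4_oil overlapped both. In astrocytes the share went from 12.2% to 30.2%, in oligodendrocyte precursors from 11.5% to 29.01% and in oligodendrocytes from 6.60% to 11.8%. In neurons, which carry the least, it went from 1.94% to 3.34% in granule neurons, from 1.92% to 5.42% in CA1 neurons and from 1.10% to 2.40% in inhibitory neurons. Endothelial cells had the highest share in mice without tau, 25.8% in FE3 and 53.1% in FE4, and the shares of 52.2% and 58.3% in TAFE4_oil and TAFE4_tam rest on 67 and 36 nuclei. In TAFE4_tam most microglia of this depth therefore held at least 3 such UMIs. At least 1 was held by most microglia of this depth in each of the tau libraries. That share was 82.3% in TAFE4_oil and 93.6% in TAFE4_tam, against 90.6% in TAFE3_oil and 87.5% in TAFE3_tam. For FE3 and FE4 it was 70% (45.7% to 88.1%) of 20 nuclei and 61.1% (43.5% to 76.9%) of 36, so both intervals are wide.

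**Figure D3:**
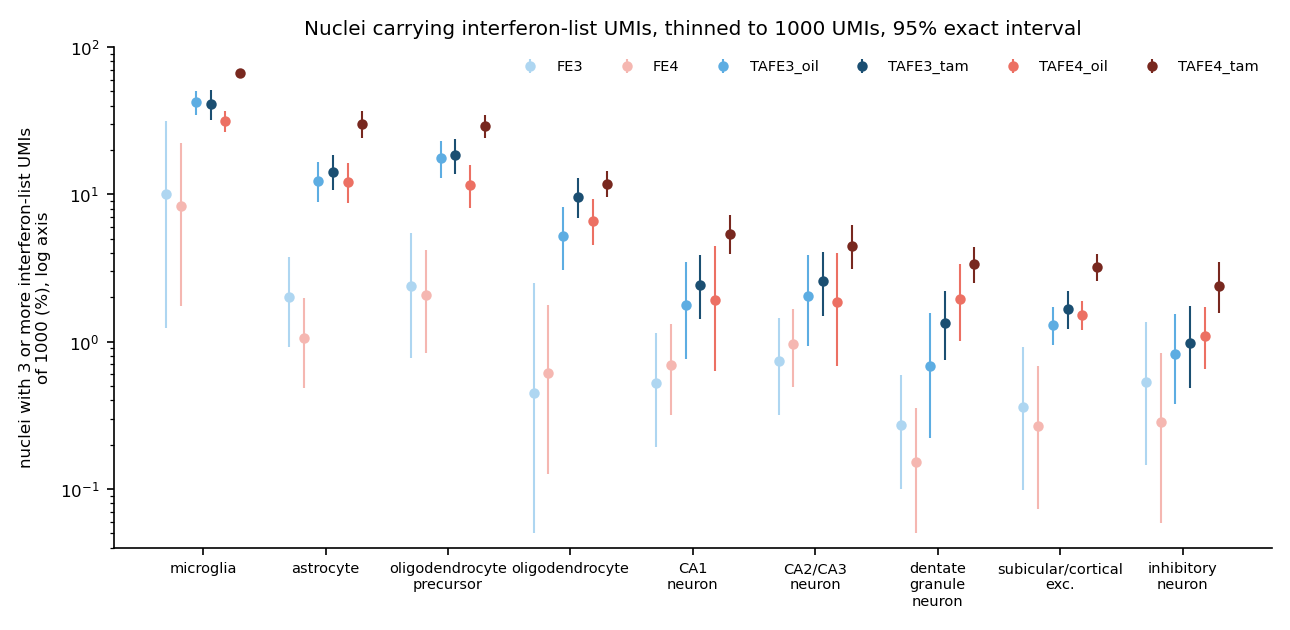
Percent of nuclei with at least 3 of 1000 UMIs from the interferon list (log axis), by class, with the 6 libraries in different colours and exact 95% intervals; intervals reaching under 0.05% are cut there. TAFE4_tam lies above TAFE4_oil in each class shown, at 66.6% and 31.5% in microglia.

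Microglia numbered 1000 nuclei in TAFE4_oil and 1516 in TAFE4_tam, with 974949 and 1456267 UMIs. Among the genes with the highest ratios was Samd9l, an antiviral member of the interferon list, at 8.21 CPM in TAFE4_oil and 54.9 in TAFE4_tam, against 27.5 in TAFE3_oil and 34.5 in TAFE3_tam, with 0 and 5.26 for FE3 and FE4, a ratio of 2.74 (1.70 to 4.00). Pydc4, a pyrin-domain gene of the interferon-inducible cluster, stood at 19.5 CPM in TAFE4_oil and 92.0 in TAFE4_tam, against 18.3 in TAFE3_oil and 25.8 in TAFE3_tam, with 0 and 2.63 for FE3 and FE4, a ratio of 2.24 (1.54 to 3.02). The chemokine Ccl12, a ligand of CCR2, stood at 64.6 CPM in TAFE4_oil and 219 in TAFE4_tam, against 122 in TAFE3_oil and 112 in TAFE3_tam, with 44.7 and 18.4 for FE3 and FE4, a ratio of 1.76 (1.37 to 2.17). In each of the 3 genes TAFE4_tam was the highest library and the ratios of the APOE3 pair were 0.33, 0.50 and -0.12. Parp10, a mono-ADP-ribosyltransferase, was at 6.15 CPM in TAFE4_oil and 36.4 in TAFE4_tam (2.56).

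Disease-associated genes, which microglia raise around plaques and degenerating neurons, were little different between the libraries. Of 40 measured members 5 were higher and 4 lower, with a median of 0.15 (0.036 in the APOE3 pair), close to the 8.86% higher and 9.66% lower over all microglial genes. Trem2, the lipid receptor that drives this state, was at 1059 CPM in TAFE4_oil and 1112 in TAFE4_tam, against 1120 in TAFE3_oil and 1232 in TAFE3_tam, with 827 and 899.8 for FE3 and FE4, a ratio of 0.071 (-0.043 to 0.18). Its levels in the 4 tau libraries lay between 1059 and 1232 CPM, close to each other. Its adaptor Tyrobp was at 315 CPM in TAFE4_oil and 329.6 in TAFE4_tam (0.066). Spp1, a secreted phosphoprotein, was at 714 CPM in TAFE4_oil and 858 in TAFE4_tam (0.26), Cst7, a cathepsin inhibitor, at 61.5 and 74.2 CPM (0.27), and Clec7a, a fungal glucan receptor, at 85.1 and 103 CPM (0.27). These are known as central genes of the state and none passed 1.5-fold. Members that were lower included Lyz2, lysozyme, at 626 CPM in TAFE4_oil and 392.1 in TAFE4_tam, against 611 in TAFE3_oil and 418 in TAFE3_tam, with 55.9 and 31.6 for FE3 and FE4, with ratios of -0.67 (-0.84 to -0.51) here and -0.55 in the APOE3 pair. The glycoprotein Gpnmb was at 55.4 CPM in TAFE4_oil and 26.8 in TAFE4_tam, against 19.6 in TAFE3_oil and 8.61 in TAFE3_tam, with 0 and 0 for FE3 and FE4, with ratios of -1.05 (-1.68 to -0.43) and -1.19. Lyz2 was lower in each tamoxifen library than in its oil library, while the interval of Gpnmb in the APOE3 pair, -3.24 to 0.46, held 0.

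Genes of resting microglia had a median of 0.22 (0.088 in the APOE3 pair), with 6 of 35 members higher and 1 lower (all genes 8.86% and 9.66%). P2ry12, the ADP receptor that guides microglial processes, stood at 60.5 CPM in TAFE4_oil and 115 in TAFE4_tam, against 78.5 in TAFE3_oil and 99.1 in TAFE3_tam, with 380.1 and 418 for FE3 and FE4, a ratio of 0.93 (0.49 to 1.38). Sall1, the transcription factor that holds microglial identity, stood at 31.8 CPM in TAFE4_oil and 71.4 in TAFE4_tam, against 41.9 in TAFE3_oil and 47.4 in TAFE3_tam, with 67.1 and 60.5 for FE3 and FE4, a ratio of 1.17 (0.58 to 1.80). Nav3, a cytoskeletal gene, stood at 192 CPM in TAFE4_oil and 396 in TAFE4_tam, against 242 in TAFE3_oil and 323 in TAFE3_tam, with 548 and 499.9 for FE3 and FE4, a ratio of 1.04 (0.80 to 1.29). In each of them TAFE4_oil was the lowest of the 6 libraries, and TAFE4_tam lay nearer to the mice without tau, although P2ry12 there was far below FE3 and FE4. Tmem119 (0.52), Cx3cr1 (0.13) and Csf1r (0.13) did not pass 1.5-fold. These genes helped to define the class, so the values describe the nuclei that were named microglia. With 2 unnamed clusters of microglial markers and high doublet scores counted as microglia, the median was 0.55 for the disease-associated and 0.58 for the resting genes, so both values depend on which clusters are included.

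Genes of antigen presentation differed by MHC class. Of the MHC class I genes, which show peptides to CD8 T cells, 9 of 20 were higher in microglia with none lower (median 0.50, and 0.28 in the APOE3 pair, with 8.86% of all microglial genes higher), among them H2-Q7 at 73.8 CPM in TAFE4_oil and 146 in TAFE4_tam (0.99) and H2-Q4 (0.91). Reads of these near-identical H2 genes may be split between copies. The proteasome activator Psme2 was at 30.8 and 66.6 CPM (1.11). Of the 6 measured MHC class II genes, which serve CD4 T cells, none passed 1.5-fold in the APOE4 pair (median 0.10), while 4 of 6 were higher in the APOE3 pair (median 0.67, with 4.79% of all genes higher there). Cd74, the class II invariant chain, stood at 527 CPM in TAFE4_oil and 593 in TAFE4_tam, against 488 in TAFE3_oil and 848 in TAFE3_tam, with 123 and 49.99 for FE3 and FE4, with ratios of 0.17 (0.0095 to 0.33) here and 0.80 there. TAFE3_tam was the highest of the libraries for this gene. Class I genes had 5 of 10 members higher in CA1 neurons (median 0.45, all genes 5.02%) and 2 of 13 in endothelial cells (0.27, all genes 5.77%). In inhibitory neurons none of 14 was higher and 1 was lower (median -0.050, all genes 1.31% higher and 5.92% lower).

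The lists that follow stand beside 8.86% of all microglial genes higher and 9.66% lower. Chemokine and cytokine genes had a median of 0.40 with 7 of 23 higher and 1 lower, and the ratio was 0.0061 for Ccl3 and 0.34 for Ccl4, which are inflammatory chemokines. Complement genes had a median of 0.18 (4 higher, 1 lower of 18). C1qa, a subunit of the initiating complex, was at 3584 CPM in TAFE4_oil and 3571 in TAFE4_tam (-0.0050). Trem2 signalling genes had a median of 0.24 (4 of 17 higher) and genes of engulfment 0.24 (5 higher and 2 lower of 29). Among the latter were the Fc receptor Fcgr1 at 82.1 and 155 CPM (0.92), the lipid receptor Cd300lf at 33.9 and 81.0 CPM (1.26), the TAM receptor Tyro3 at 66.7 and 29.5 CPM (-1.18) and the bridging protein Mfge8 at 62.6 and 37.8 CPM (-0.73). Lysosome genes had a median of -0.084, with 1 higher and 1 lower of 38, and the median turned to 0.27 with the unnamed microglial clusters of high doublet score included.

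**Figure D4:**
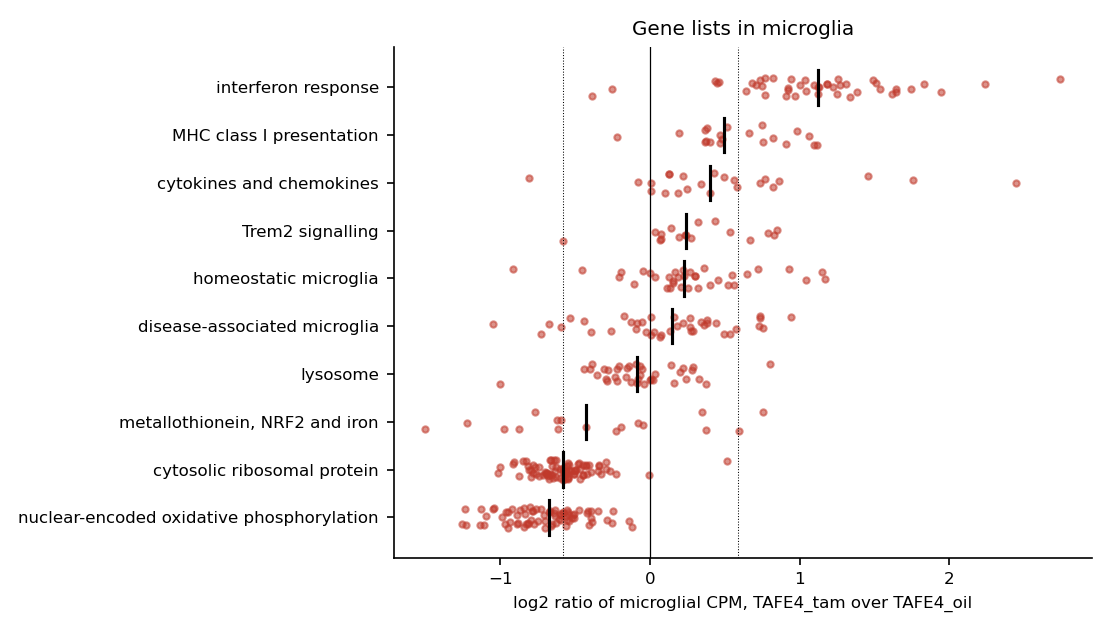
Log2 ratios of the measured genes of several lists in microglia, TAFE4_tam over TAFE4_oil. Points are genes, black bars medians and dotted lines 1.5-fold in either direction. The interferon list has a median of 1.12 and the disease-associated list one of 0.15.

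The lowest microglial ratios among the named genes included those of S100b, Mt1 and Mt3. The metallothionein Mt1, which binds zinc and copper, stood at 813 CPM in TAFE4_oil and 287 in TAFE4_tam, against 543 in TAFE3_oil and 635 in TAFE3_tam, with 346 and 292 for FE3 and FE4, a ratio of -1.50 (-1.68 to -1.33). Mt3 stood at 775 CPM in TAFE4_oil and 332 in TAFE4_tam, against 513 in TAFE3_oil and 644 in TAFE3_tam, with 581 and 297 for FE3 and FE4, a ratio of -1.22 (-1.39 to -1.06). The calcium-binding S100b stood at 107 CPM in TAFE4_oil and 28.8 in TAFE4_tam, against 60.2 in TAFE3_oil and 96.9 in TAFE3_tam, with 67.1 and 28.9 for FE3 and FE4, a ratio of -1.89 (-2.44 to -1.36). TAFE4_oil was the highest library for all 3, TAFE4_tam was close to FE4, and the APOE3 pair had ratios of 0.23, 0.33 and 0.69. Prdx6 (-1.42), Ndrg2 (-1.34), Dbi (-1.25) and Clu (-1.12) were lower as well. In the astrocytes themselves the ratios were -0.17 for Mt1, -0.20 for Mt3, -0.35 for S100b, 0.035 for Ndrg2 and 0.048 for Clu, so these genes were not lower there by 1.5-fold. Over the list of metallothionein, NRF2 and iron genes, 8 of 17 were lower and 2 higher in microglia, where 9.66% of all genes were lower (median -0.43, and 0.011 in the APOE3 pair). The tubulin gene Tuba1a was at 424 and 185 CPM (-1.20), and 16 neuronal transcripts, which microglia should lack, had a summed level of 15180 CPM in TAFE4_oil and 14144 in TAFE4_tam with a median ratio of -0.31. The part of free RNA in these values was not tested.

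Most measured nuclear genes of the respiratory chain were lower in microglia and oligodendrocytes of TAFE4_tam. In microglia mitochondrially encoded genes took 2.95% of UMIs in TAFE4_oil and 1.37% in TAFE4_tam, and ribosomal protein genes 2.74% and 1.83%. Of 75 nuclear-encoded oxidative phosphorylation genes, which build the respiratory chain, 49 were lower and none higher in microglia (median -0.68, against 0.015 in the APOE3 pair). The same list had 25 of 74 lower in astrocytes (-0.43) and 49 of 76 in oligodendrocytes (-0.71). Over all genes 9.66% were lower in microglia, 11.3% in astrocytes and 10.2% in oligodendrocytes. Cytosolic ribosomal protein genes had 38 of 81 lower in microglia, 12 of 78 in astrocytes and 54 of 81 in oligodendrocytes, and heat shock and chaperone genes had 6 of 24, 5 of 18 and 4 of 25 lower. Most chaperone genes thus lay within 1.5-fold, and the astrocytic count of ribosomal protein genes was near the share over all genes. In endothelial cells the medians were -0.036 for oxidative phosphorylation genes and 0.22 for ribosomal protein genes. The part of carried-over cytoplasm in the lower values was not tested.

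Genes of other stress programmes passed 1.5-fold in microglia at about the share of all genes. Unfolded protein and integrated stress response genes had 3 higher and 2 lower of 30, and p53 and DNA damage genes 1 higher and 2 lower of 19 (median 0.16), where 8.86% of all genes were higher and 9.66% lower. Transcripts of hepatocytes formed a separate group among the genes with high ratios. Alb, which encodes serum albumin, had 2 UMIs in the microglia of TAFE4_oil and 65 in those of TAFE4_tam, 2.05 and 44.6 CPM, and in oligodendrocytes it had 3 and 84 UMIs, 3.13 and 47.8 CPM. The apolipoprotein Apoa2 was at 11.3 and 54.9 CPM in microglia (2.28) and at 8.34 and 50.6 CPM in oligodendrocytes. A cluster led by such genes held 39 nuclei of TAFE4_tam, 3 of TAFE4_oil and 2 of TAFE3_oil. In all other nuclei 8 liver genes summed to 22.9 CPM in TAFE4_oil and 80.7 in TAFE4_tam, to 16.9 and 13.2 in the oil and tamoxifen libraries with APOE3, and to 5.90 and 11.5 for FE3 and FE4. TAFE4_tam was thus the library with the most of these transcripts, and their source was not tested.

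Astrocytes numbered 297 nuclei in TAFE4_oil and 236 in TAFE4_tam, with 751362 and 466495 UMIs. Of all genes measured, 218 were higher and 502 lower, so that 30.3% of those past the fold were higher. With scaling by trimmed mean or by median of ratios in place of the class total this share became 46.1% or 46.7%. Reactive astrocyte genes, which mark the response to injury, had a median of 0.13 with 4 of 17 higher and none lower, where 4.91% of all genes were higher and 11.3% lower (-0.039 in the APOE3 pair). Gfap, the intermediate filament of reactive astrocytes, stood at 1346 CPM in TAFE4_oil and 1475 in TAFE4_tam, against 1783 in TAFE3_oil and 1687 in TAFE3_tam, with 344 and 390.3 for FE3 and FE4, a ratio of 0.13 (-0.0095 to 0.27). Vim, its partner filament, stood at 334 CPM in TAFE4_oil and 242 in TAFE4_tam, against 570.1 in TAFE3_oil and 492 in TAFE3_tam, with 68.3 and 74.3 for FE3 and FE4, a ratio of -0.46 (-0.80 to -0.14). The 4 tau libraries were above FE3 and FE4 for both genes, and neither passed 1.5-fold between TAFE4_oil and TAFE4_tam. Complement C4b stood at 554 CPM in TAFE4_oil and 787 in TAFE4_tam, against 643 in TAFE3_oil and 724 in TAFE3_tam, with 245 and 209 for FE3 and FE4, a ratio of 0.51 (0.30 to 0.71). The acute-phase inhibitor Serpina3n was at 54.6 and 77.2 CPM (0.50).

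MHC class I genes were higher in astrocytes, 7 of 9 measured members with none lower (against 4.91% of all genes higher, median 0.76, and 0.55 in the APOE3 pair). H2-D1, a classical class I gene, stood at 248 CPM in TAFE4_oil and 420.2 in TAFE4_tam, against 241 in TAFE3_oil and 351 in TAFE3_tam, with 57.9 and 60.2 for FE3 and FE4, with ratios of 0.76 (0.47 to 1.06) and 0.54 in the 2 pairs. H2-T23, which presents to NKG2 receptors, stood at 42.6 CPM in TAFE4_oil and 118 in TAFE4_tam, against 35.2 in TAFE3_oil and 60.1 in TAFE3_tam, with 11.6 and 12.6 for FE3 and FE4, with 1.47 (0.81 to 2.15) and 0.77. For both genes each tamoxifen library was above its oil library. Homeostatic genes, such as those of transport, were mostly within 1.5-fold. Of 40 measured members 3 were higher and none lower, with a median of 0.14 (0.20 in the APOE3 pair). The glutamate transporter Slc1a3 stood at 1717 CPM in TAFE4_oil and 2602 in TAFE4_tam, against 1795 in TAFE3_oil and 2130 in TAFE3_tam, with 2365 and 2057 for FE3 and FE4, a ratio of 0.60 (0.49 to 0.71), and the adhesion protein Hepacam was at 161 and 268 CPM (0.73, and 0.60 in the APOE3 pair). The water channel Aqp4 (-0.14), glutamine synthetase Glul (-0.16) and the gap junction gene Gja1 (0.22) were within 1.5-fold. None of 26 genes of astrocytic synapse organisation passed it.

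Most other lipid transport genes of astrocytes were within 1.5-fold. Of 19 lipoprotein and lipid transport genes measured in astrocytes 1 was higher and none lower (median 0.11). Abca1, which loads lipid onto APOE, was at 241 and 202 CPM (-0.26). Of 11 cholesterol synthesis genes 4 were lower (median -0.33, and -0.035 in the APOE3 pair), where 11.3% of all astrocyte genes were lower and 4.91% higher. Hmgcs1 and Sqle, enzymes early and midway in the pathway, were each at 82.5 and 49.3 CPM (-0.74). Apoc1, a small apolipoprotein that lies next to Apoe in the mouse genome, was in contrast higher with tamoxifen under both alleles in several classes. Its astrocyte level was 19.96 CPM in TAFE4_oil and 79.3 in TAFE4_tam, against 7.83 in TAFE3_oil and 47.6 in TAFE3_tam, with 9.26 and 5.34 for FE3 and FE4, with ratios of 1.99 (1.09 to 2.96) for APOE4 and 2.60 for APOE3. In oligodendrocytes it was 16.7 CPM in TAFE4_oil and 58.0 in TAFE4_tam, against 10.4 in TAFE3_oil and 36.8 in TAFE3_tam, with 3.45 and 1.88 for FE3 and FE4, with 1.80 (1.03 to 2.66) and 1.83. Each tamoxifen library stood above its oil library and above FE3 and FE4 in both classes. In microglia the ratios were 0.76 (0.23 to 1.32) and 0.82, in granule neurons 2.24 (1.19 to 3.50) and 1.53, and in subicular or cortical neurons 1.67 (1.296 to 2.05) and 1.18, while in oligodendrocyte precursors, with 7 and 19 UMIs, they were 1.44 (0.12 to 2.93) and -0.11. Tomm40, on the other side of Apoe, had ratios of -0.65 in astrocytes, -0.20 in oligodendrocytes and -0.077 in granule neurons, and was chosen after the values of Apoc1 had been seen.

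Genes with the lowest ratios in astrocytes were led by Myoc, the secreted myocilin, found at 172 CPM in TAFE4_oil and 36.4 in TAFE4_tam, against 171 in TAFE3_oil and 176 in TAFE3_tam, with 54.4 and 113 for FE3 and FE4. The ratio was -2.24 (-3.06 to -1.50) from 129 and 17 UMIs, and 0.044 in the APOE3 pair, so TAFE4_tam was the lowest library and the other 3 tau libraries were level. Lower too were the lysosomal sulfatase Ids (69.2 and 19.3 CPM, -1.84), the actin-binding thymosin Tmsb10 (139.7 and 55.7 CPM, -1.33) and the proteasome subunits Psmb5 (-1.36) and Psmd2 (-1.40). The NRF2 gene itself, Nfe2l2, which governs antioxidant genes, was at 53.2 and 23.6 CPM (-1.18). Of the metallothionein, NRF2 and iron list 1 of 12 members was lower, against 11.3% of all astrocyte genes. In astrocytes the mitochondrial share of UMIs was 2.75% in TAFE4_oil and 1.82% in TAFE4_tam.

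Oligodendrocytes numbered 818 and 1642 nuclei. Of the genes past the fold 30.2% were higher, a share that became 41.3% with either alternative scaling. Myelin genes lay within 1.5-fold, with none of 39 past it and a median of 0.20 (-0.022 in the APOE3 pair). Mbp, which compacts the sheath, was at 3223 CPM in TAFE4_oil and 3729 in TAFE4_tam (0.21), and the surface protein Mog had a ratio of 0.16. Genes of reactive oligodendrocytes had 5 higher and 7 lower of 27, where 4.39% of all genes were higher and 10.2% lower (median 0.041). With an unnamed cluster of oligodendrocyte markers and high doublet score included, these medians were 0.72 for myelin and 0.51 for reactive genes. With at most 1% of mitochondrial UMIs the median of the reactive genes was -0.059, so its direction is not stable. C4b, which marks the disease-associated state, stood at 1121 CPM in TAFE4_oil and 1365 in TAFE4_tam, against 861 in TAFE3_oil and 832 in TAFE3_tam, with 60.3 and 104 for FE3 and FE4. It was high in all 4 tau libraries and highest in TAFE4_tam, with a ratio of 0.28 (0.18 to 0.39). H2-K1, a class I gene, stood at 209.6 CPM in TAFE4_oil and 353 in TAFE4_tam, against 183 in TAFE3_oil and 191 in TAFE3_tam, with 53.4 and 45.7 for FE3 and FE4, a ratio of 0.75 (0.52 to 0.99) against 0.064 in the APOE3 pair.

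Klk6, a myelin-degrading protease of mature oligodendrocytes, stood at 28.2 CPM in TAFE4_oil and 66.0 in TAFE4_tam, against 75.1 in TAFE3_oil and 27.9 in TAFE3_tam, with 20.7 and 6.26 for FE3 and FE4. It was low in TAFE4_oil and TAFE3_tam and high in TAFE4_tam and TAFE3_oil, so the ratios were 1.23 (0.61 to 1.89) for APOE4 and -1.43 for APOE3. Itpk1, an inositol phosphate kinase, had ratios of 0.92 and -1.23 in the same order. The lowest genes included Tmem47, a junction protein, at 58.4 and 18.2 CPM (-1.68), and Mt1 (-1.10), Mt3 (-1.08), Clu (-1.12) and Prdx6 (-1.30), genes that were lower in microglia too. The respiratory subunits Cox8a (-1.02) and Atp5k (-1.12) were lower, where the mitochondrial share of UMIs was 2.35% and 0.897%. The part of that share in these values was not tested.

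In oligodendrocyte precursors (328 and 376 nuclei) the leading genes were interferon-stimulated. Ddx60, an RNA-sensing helicase, stood at 17.7 CPM in TAFE4_oil and 137 in TAFE4_tam, against 66.5 in TAFE3_oil and 77.8 in TAFE3_tam, with 9.19 and 7.08 for FE3 and FE4. TAFE4_oil lay below both APOE3 libraries and TAFE4_tam above them, with a ratio of 2.96 (1.95 to 4.14). Irf9, the DNA-binding part of the interferon complex, was at 25.5 and 102 CPM (1.997), H2-Q4 at 19.6 and 88.2 CPM (2.17) and H2-K1 at 212 and 484 CPM (1.19). MHC class I genes had 5 of 7 higher (median 0.69, all genes 5.20%). The small heat shock protein Cryab was at 169 and 52.9 CPM (-1.68) and Mt1 at 583 and 241 CPM (-1.27), and 5 of 10 metallothionein, NRF2 and iron genes were lower with none higher, where 10.8% of all genes were lower.

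Synaptic genes of neurons were mostly within 1.5-fold, beside 3.71% of all genes higher and 4.71% lower in granule neurons and 5.02% and 6.99% in CA1 neurons. Presynaptic genes in dentate granule neurons (620 and 1509 nuclei) had a median of 0.14 with 2 of 44 lower and none higher, and postsynaptic genes a median of 0.17 with 1 of 54 higher. In CA1 neurons (260 and 760 nuclei) presynaptic genes had 2 higher and 2 lower of 41 (median 0.077) and postsynaptic genes 4 higher and 3 lower of 53 (median 0.16). There the AMPA receptor subunit Gria1 was at 644 and 893 CPM (0.47) and the NMDA receptor subunit Grin2a at 1842 and 2791 CPM (0.60). Complexin Cplx1, which clamps vesicle fusion, had a ratio of -1.42, and the active zone gene Rims2 one of 0.87. Kinases and phosphatases that act on tau had none higher and 1 lower of 32 in granule neurons (median -0.011) and none higher and 2 lower of 32 in CA1 neurons (-0.19).

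Immediate early genes, which neuronal activity induces, had medians on both sides of 0. In CA1 neurons 6 of 23 immediate early genes were higher and 1 lower (median 0.32, all genes 5.02% higher and 6.99% lower), and the APOE3 pair had a median of 0.24. Arc, which regulates AMPA receptor uptake at active synapses, stood at 96.7 CPM in TAFE4_oil and 178 in TAFE4_tam, against 93.5 in TAFE3_oil and 153 in TAFE3_tam, with 87.9 and 128 for FE3 and FE4, with ratios of 0.88 (0.57 to 1.20) for APOE4 and 0.71 for APOE3. The transcription factor Junb was at 90.3 and 162 CPM (0.85, and 0.61) and Egr4 at 44.7 and 89.7 CPM (1.00, and 0.81). These genes were higher in each tamoxifen library than in its oil library. Fos (0.32) did not pass 1.5-fold, and Jun had a ratio of -0.68. In inhibitory neurons 9 of 28 were lower and 1 higher (median -0.29, all genes 5.92% lower and 1.31% higher). The medians were -0.11 in granule neurons, -0.13 in CA2 or CA3 neurons and -0.10 in subicular or cortical neurons. Differences between the classes were not tested.

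Erdr1, a gene named for erythroid differentiation, was among the lower genes named in 5 neuronal classes. In granule neurons it stood at 495 CPM in TAFE4_oil and 239 in TAFE4_tam, against 579.8 in TAFE3_oil and 538 in TAFE3_tam, with 566 and 524 for FE3 and FE4, a ratio of -1.05 (-1.19 to -0.91). In subicular or cortical neurons it stood at 417 CPM in TAFE4_oil and 122 in TAFE4_tam, against 326 in TAFE3_oil and 559.8 in TAFE3_tam, with 558 and 497 for FE3 and FE4, a ratio of -1.77 (-1.87 to -1.68) against 0.78 in the APOE3 pair. In inhibitory neurons it stood at 455 CPM in TAFE4_oil and 181 in TAFE4_tam, against 454 in TAFE3_oil and 549 in TAFE3_tam, with 482 and 543 for FE3 and FE4, a ratio of -1.33 (-1.46 to -1.21). TAFE4_tam was the lowest of the 6 libraries in each of these classes, and the ratios were -0.95 in CA1 and -1.04 in CA2 or CA3 neurons. Erdr1 lies at the end of the sex chromosomes, and the labels do not give the sex of the mice. Over all nuclei the Y-linked Ddx3y was at 63.8 to 80.8 CPM and Xist, made by the inactive X, at 1.92 to 7.32 CPM in the 6 libraries, so no library stood apart in these genes. Ndfip1, an adaptor of ubiquitin ligases, was at 76.6 and 26.7 CPM in subicular or cortical neurons (-1.52) and at 62.8 and 27.4 CPM in inhibitory neurons (-1.20).

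Other genes named among the higher ones in neurons are given by class. Col4a1, a basement membrane collagen, was at 43.8 and 104 CPM in CA1 neurons (1.25) and Col11a1 at 141 and 292 CPM (1.05). The matrix peroxidase Pxdn was at 61.6 and 135 CPM in CA2 or CA3 neurons (1.13). In inhibitory neurons Col5a2 was at 16.6 and 55.6 CPM (1.74) and the membrane collagen Col25a1 at 172 and 287 CPM (0.74). Pde10a, a phosphodiesterase, stood in CA1 neurons at 359 CPM in TAFE4_oil and 689 in TAFE4_tam, against 651 in TAFE3_oil and 557 in TAFE3_tam, with 727 and 679 for FE3 and FE4, so that TAFE4_oil was the lowest library and TAFE4_tam level with the mice without tau. The clock gene Per3 in granule neurons stood at 175 CPM in TAFE4_oil and 274 in TAFE4_tam, against 269.5 in TAFE3_oil and 290.2 in TAFE3_tam, with 388 and 327 for FE3 and FE4, with TAFE4_oil again the lowest and a ratio of 0.64 (0.46 to 0.83).

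The class of subicular or cortical neurons and that of inhibitory neurons each pool several clusters, and gene values there can move with the mix of clusters. Tshz2, a marker of a subset of the former, stood at 359 CPM in TAFE4_oil and 699 in TAFE4_tam, against 399 in TAFE3_oil and 675 in TAFE3_tam, with 1268 and 1537 for FE3 and FE4, with ratios of 0.96 for APOE4 and 0.76 for APOE3. Cartpt, a neuropeptide gene, was at 13.3 and 1.92 CPM (-2.79). In inhibitory neurons the stress peptide Crh was at 51.8 and 25.1 CPM (-1.04). Of the inhibitory genes past the fold 18.1% were higher, a share that became 30.5% or 30.8% with scaling by trimmed mean or by median of ratios.

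Endothelial cells (103 and 71 nuclei) held interferon genes at a high level. Ifit3, a partner of Ifit1, stood at 61.9 CPM in TAFE4_oil and 303 in TAFE4_tam, against 113 in TAFE3_oil and 97.6 in TAFE3_tam, with 12.4 and 68.9 for FE3 and FE4, a ratio of 2.29 (1.62 to 3.01). Bst2 stood at 155 CPM in TAFE4_oil and 364 in TAFE4_tam, against 298 in TAFE3_oil and 188 in TAFE3_tam, with 118 and 105 for FE3 and FE4, a ratio of 1.24 (0.76 to 1.72). TAFE4_tam was the highest library for both, and TAFE3_oil came next. Lgals9, a galectin induced by interferon, was at 43.8 and 141 CPM (1.68). The junction gene Cldn5 (-0.14), the VEGF receptor Flt1 (0.15) and the glucose transporter Slc2a1 (0.38) were within 1.5-fold. Ptgds, a prostaglandin synthase made by meningeal cells, was at 2258 and 4228 CPM (0.90).

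The mix of nuclei differed between the libraries, and a difference in 1 class moves the shares of all others. Hippocampal excitatory neurons, that is dentate granule, CA1 and CA2 or CA3 neurons together, made up 9.95% in TAFE4_oil and 24.2% in TAFE4_tam, against 15.5% in TAFE3_oil and 24.7% in TAFE3_tam, with 48.8% and 40.9% for FE3 and FE4. The log2 ratio was 1.28 (1.19 to 1.38) for APOE4 and 0.67 (0.58 to 0.76) for APOE3. Both oil libraries were thus lowest, both tamoxifen libraries between them and the mice without tau. CA1 neurons had a ratio of 1.51 (1.303 to 1.72), granule neurons 1.24 (1.11 to 1.38) and CA2 or CA3 neurons 1.15 (0.96 to 1.35). Within these 3 classes the proportions were close, 51.5% and 50.1% for granule neurons in TAFE4_oil and TAFE4_tam, 21.6% and 25.2% for CA1 and 26.97% and 24.7% for CA2 or CA3. Subicular or cortical neurons made up 42.3% in TAFE4_oil and 21.6% in TAFE4_tam, against 33.9% in TAFE3_oil and 27.6% in TAFE3_tam, with 12.3% and 10.5% for FE3 and FE4. A cluster among them led by Rorb and Cux2, markers of upper cortical layers, made up 21.9% in TAFE4_oil and 6.58% in TAFE4_tam, against 16.6% in TAFE3_oil and 4.73% in TAFE3_tam, with 0.329% and 0.160% for FE3 and FE4. It was nearly missing from the mice without tau, with 30 nuclei in FE3 and 23 in FE4 beside 244 and 431 oligodendrocyte precursors. In TAFE4_oil and TAFE4_tam it held 2649 and 819 nuclei beside 328 and 376 precursors. In TAFE3_oil and TAFE3_tam it held 1755 and 479 beside 281 and 294. The parts of more dissected cortex and of fewer surviving hippocampal neurons in these shares were not tested.

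Microglia made up 8.26% in TAFE4_oil and 12.2% in TAFE4_tam, against 8.17% in TAFE3_oil and 5.23% in TAFE3_tam, with 1.05% and 3.50% for FE3 and FE4. The ratios were 0.56 (0.45 to 0.68) for APOE4 and -0.64 (-0.80 to -0.49) for APOE3, so microglia were more frequent with tamoxifen in 1 pair and less frequent in the other. Without the limit on mitochondrial UMIs the APOE4 ratio was 0.12, and without the Rorb and Cux2 cluster in the total it was 0.30. Astrocytes made up 2.45% in TAFE4_oil and 1.90% in TAFE4_tam, against 3.02% in TAFE3_oil and 3.42% in TAFE3_tam, with 5.48% and 6.56% for FE3 and FE4. The ratio of -0.37 (-0.62 to -0.12) was -0.998 with no limit on mitochondrial UMIs. It turned to 0.98 when at most 1% was allowed, which left 15 astrocytes of TAFE4_oil and 106 of TAFE4_tam. The astrocyte share therefore depends on that filter, and the opposite sign rests on those 15 TAFE4_oil nuclei. Oligodendrocytes made up 6.76% in TAFE4_oil and 13.2% in TAFE4_tam, against 6.69% in TAFE3_oil and 8.54% in TAFE3_tam, with 6.50% and 12.2% for FE3 and FE4, with ratios of 0.97 (0.84 to 1.09) and 0.35 (0.21 to 0.50). Oligodendrocyte precursors were steady at 2.66% to 3.02% of all 6 libraries. Choroid plexus nuclei, from the tissue that makes cerebrospinal fluid, numbered 11 in TAFE4_oil and 64 in TAFE4_tam, 109 and 50 in the APOE3 pair, and 138 and 106 for FE3 and FE4. T cells numbered 14 and 50, 15 and 2, and 0 and 3 in the same order.

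**Figure D5:**
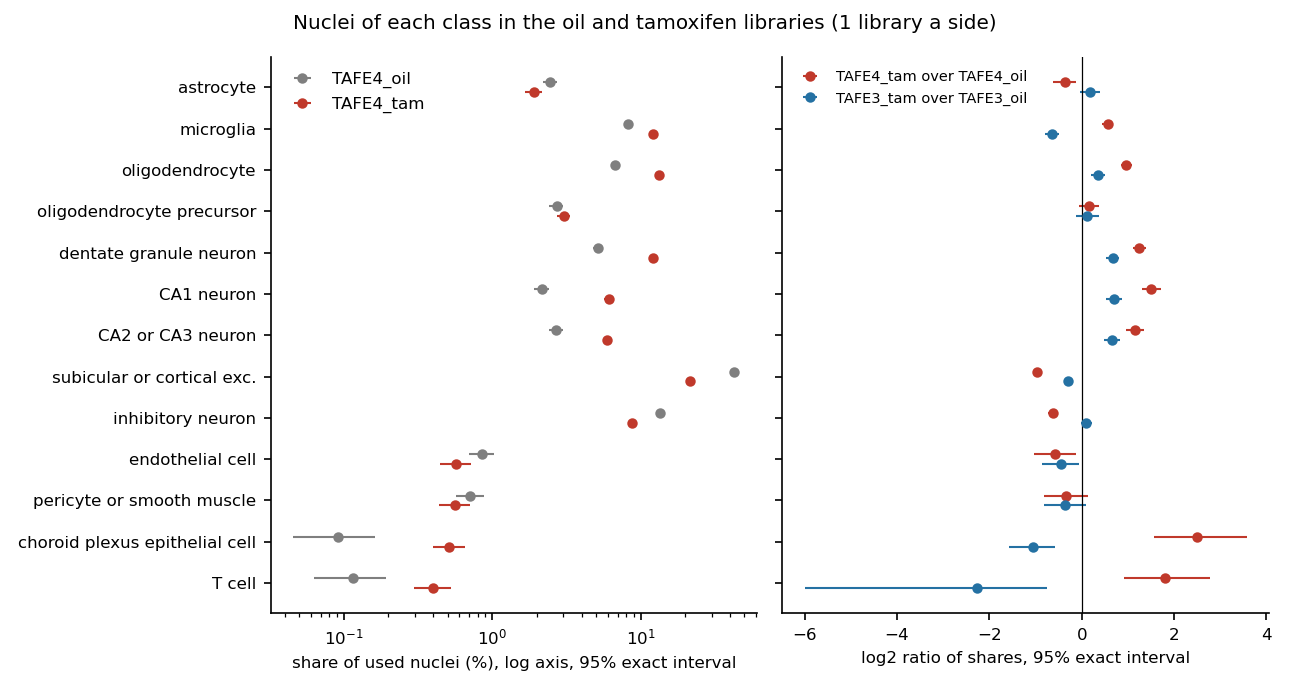
Left, percent of nuclei per class (log axis) in TAFE4_oil (grey) and TAFE4_tam (red). Right, log2 ratio of the shares with exact 95% intervals for the APOE4 pair (red) and the APOE3 pair (blue), the T cell interval of the latter being cut at -6. Hippocampal classes lie to the right of 0 in both pairs, and microglia lie at 0.56 in red and -0.64 in blue.

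Across genes the 2 pairs, which share no library, had weakly related ratios. Over genes with at least 100 UMIs in both pairs the Pearson correlation of the log2 ratios was 0.14 in astrocytes (1857 genes), 0.18 in microglia (2083), 0.041 in oligodendrocytes (2640), 0.028 in granule neurons (6588) and 0.092 in CA1 neurons (5236). The sign was the same for 51.5% of the genes in astrocytes and 58.1% in microglia. Genes are not independent replicates, and counting error lowers such values.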

How the data were processed

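Nuclei of flash-frozen brain were sequenced in 6 libraries, 1 per group. Each deposited matrix holds raw UMI counts. The authors used Cell Ranger, whose version 3.1.0 stands in the file headers, and the submitters' processing notes list mm10 and Seurat. The design text speaks of the 3′ end of transcripts, the extract protocol of a 5′ kit. Human APOE was counted beside the mouse genes. From these counts, barcodes with fewer than 500 UMIs or 300 genes, or with more than 5% of mitochondrial UMIs, were left out, and doublets were called per library with scrublet in scanpy 1.11.5. The calls left out 940 nuclei of TAFE4_oil (of 13046 passing the filters) and 2004 of TAFE4_tam (of 14442), and removing the expected share in every library is among the alternatives. Nuclei were clustered on 2000 variable genes, 30 principal components and 15 neighbours with leidenalg 0.10.2 at resolution 1 (seed 1), and clusters were named from markers. UMIs were summed per class and library, with no further normalization than the class total. Genes with at least 50 UMIs over both libraries of a pair were compared by their CPM ratio with an exact conditional binomial 95% interval, and shares carry exact Clopper-Pearson intervals. Both cover counting error only, and PCR copies are removed only as far as UMIs allow. Counts under a floor of 3 UMIs were set to that floor for a ratio, but not for its interval. The code was tested on simulated data.

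The members, gene lists and markers were chosen with earlier results of these data known. Genes were named by rank of the interval bound nearest 0, the 8 highest and 8 lowest in each of 3 glial classes and the 5 highest and 5 lowest in other classes, among genes at least as high in the class as elsewhere and without mitochondrial, ribosomal, sex-linked, Gm or Rik genes and markers of other classes. The 3 members at each end of a list and its defining members were added, and not all of these are printed. Other genes were chosen after their values were seen. Alternatives were scaling by TMM factors (edgeR 4.0.16) or by median of ratios (DESeq2 1.42.0), other filters on genes, depth, mitochondrial UMIs and doublets, and a coarser clustering at resolution 0.5. Promoters came from RefSeq on GRCm38.p6.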

Additional observations from a re-analysis of the deposited data

Results flagged for a closer look

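Several values had opposite signs in the APOE4 and the APOE3 pair (log2 ratio of the tamoxifen over the oil library), with intervals of counting error on opposite sides of 0. The difference between the pairs was not tested, since each group is 1 library. Among the shares of nuclei, that of microglia was 0.56 for APOE4 and -0.64 for APOE3, that of choroid plexus 2.502 and -1.06, and that of T cells 1.80 and -2.26. In microglia S100b stood at -1.89 and 0.69, Mt1 at -1.50 and 0.23 and Mt3 at -1.22 and 0.33. In oligodendrocytes Klk6 stood at 1.23 and -1.43, Itpk1 at 0.92 and -1.23, Clu at -1.12 and 0.25, Mt3 at -1.08 and 0.38 and Cox8a at -1.02 and 0.21. In this family TAFE4_oil was the highest library for the microglial metallothioneins, and mitochondrial UMIs were also higher in TAFE4_oil than in TAFE4_tam, whose part was not tested.

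Signal also appeared outside the classes compared. A cluster led by liver genes held 39 nuclei of TAFE4_tam, 3 of TAFE4_oil, 2 of TAFE3_oil and none of the other 3 libraries.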

How the results depend on the processing

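Values are TAFE4_tam over TAFE4_oil. No paired analysis was possible because each group is 1 library. The interferon median stayed above 0 in all 109 alternatives run over its 10 classes. For precursors it ranged from 0.53 with at least 100 UMIs to 1.80 with at least 1000 UMIs per nucleus. The reactive oligodendrocyte median, reported as 0.041, was -0.059 with at most 1% of mitochondrial UMIs. The microglial lysosome median, reported as -0.084, was 0.019 with at least 1000 UMIs per nucleus, 0.014 with no mitochondrial limit and 0.27 with the clusters of high doublet score, and the immediate early median of granule neurons was 0.014 with at least 100 UMIs. Of the summary values 324 alternatives stayed close to the reported value, 79 moved and 1, with a counting interval apart from 0, reversed. The 128 named entries are each a gene in a class, so some genes recur. For these entries the figures were 1052, 68 and 2. The reversed ones were Spink8 in oligodendrocytes (-0.47) and Hrk in CA2 or CA3 neurons (0.26), both with at most 1% of mitochondrial UMIs. With that limit the log2 ratios of shares were 3.46 for microglia, 0.98 for astrocytes (reversed), 0.93 for hippocampal excitatory neurons and 2.48 for oligodendrocytes, and genes 1.5-fold higher numbered 1111 for granule, 861 for CA1, 813 for CA2 or CA3 and 313 for inhibitory neurons. That limit left 20 microglia and 15 astrocytes of TAFE4_oil, against 787 and 106 of TAFE4_tam, so these share ratios rest on few nuclei. Gene values were not run there for astrocytes, microglia, precursors and endothelial cells, with under 50 nuclei left. Those of endothelial cells with at least 1000 UMIs were not run either. With no mitochondrial limit the shares were 0.12 for microglia and -0.998 for astrocytes, APOE in astrocytes -2.06, the homeostatic astrocyte median 0.25, and 723 astrocyte and 291 endothelial genes were higher. With at least 1000 UMIs per nucleus the shares were 0.68 for microglia, 1.44 for hippocampal neurons and 0.76 for oligodendrocytes, with 443 microglial genes higher and 464 lower. APOE in astrocytes was -1.76 with TMM, -1.75 with median of ratios (330 astrocyte genes higher) and -1.68 with doublets kept. Astrocytes of TAFE4_tam without APOE were 9.75% not thinned and 1.33% at 2000 UMIs.

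Genes higher and lower past 2-fold were, for astrocytes, microglia and oligodendrocytes in turn, 31 and 92, 124 and 173, and 50 and 132. Genes higher were 30 for precursors, 48 for granule, 51 for CA1, 52 for CA2 or CA3, 61 for subicular or cortical and 21 for inhibitory neurons, and 26 for endothelial cells. With at least 100 UMIs these were, in that order, 53 and 170, 357 and 422, 115 and 410, then 63, 177, 217, 197, 182, 56 and 23. With at least 20 UMIs they were 751 and 1405, 1224 and 1328, 727 and 1447, then 770, 687, 763, 758, 633, 364 and 695. The next alternatives were chosen after seeing the data. With the unnamed microglial and oligodendrocyte clusters of high doublet score included, the shares were 0.26 and 0.62, 1104 microglial genes were higher, 686 oligodendrocyte genes were higher and 1283 lower, and the medians in microglia were 1.47 for interferon, 0.91 for class I, 0.55 for disease-associated and 0.58 for homeostatic genes, and in oligodendrocytes 0.81 for class I, 0.72 for myelin and 0.51 for reactive genes. Without the Rorb and Cux2 cluster the shares were 0.30 for microglia, -0.63 for astrocytes, 1.02 for hippocampal neurons and 0.71 for oligodendrocytes. Depth limits the rarer classes, since only 12 of the 56 interferon genes reached 50 UMIs in astrocytes against 45 in microglia.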
